A study of Mus musculus with 2 samples.

Results

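Luminal cells of the secretory lineage that carried cell cycle transcripts were followed in mammary epithelium of pregnant mice that lacked or kept Ehf, a transcription factor with an ETS domain that acts in epithelia. Their members were chosen by a rule on counts: a kept barcode was luminal when the summed UMIs (unique molecular identifiers, 1 per captured transcript) of Krt8, Krt18, Krt7, Krt19, Cldn3 and Cldn4 reached 3 and exceeded those of Krt14, Krt5, Krt17, Acta2, Myh11 and Mylk. Fewer than 3 of the 7 hormone-sensing genes Cited1, Calca, Areg, Tph1, Tmprss6, Esr1 and Pgr were detected in it. A luminal cell was cycling at 3 or more summed UMIs of 8 genes: Cdk1 and Ccnb1, which drive mitosis, Top2a, Cenpf, Nusap1, Birc5 and Ube2c, which act in it, and the proliferation marker Mki67. The rule took 755 of 15772 kept cells, 334 in the Ehf knockout library and 421 in the wild type library. It left 430 and 1976 non-cycling luminal cells, the comparison class of each library. The 2 libraries were of strains labelled EhfKO and WT, both from adult females at 18.5 days of pregnancy, with thoracic and inguinal glands dissociated and sorted to remove cells with CD31, CD45 or Ter119. Each library pooled 2 females. The labels name no treatment. The sources used here do not give the promoter, exons or cells to which the EhfKO allele applies. With 1 library per genotype, genotype, mice and library cannot be told apart, no test was possible, and every interval below is a 95% interval that covers counting error only.

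In pregnancy the luminal progenitors of the mammary gland divide many times to build alveoli, and their progeny then turn on casein, whey protein and milk fat genes under prolactin, JAK2 and STAT5. A dividing cell copies its DNA in S phase with the MCM helicase, the replication fork and nucleotide enzymes. It then enters mitosis with cyclin B and CDK1, builds a spindle that holds the chromosomes at their kinetochores, and is cut apart in cytokinesis. Cells that finish secretory differentiation usually leave the cycle, although in late pregnancy alveolar cells can copy DNA while they already make milk transcripts.

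The 8 genes that chose the cells are given first, as a description. Top2a, the topoisomerase that untangles copied DNA, had 3644 UMIs in knockout cycling cells and 1761 in wild type cycling cells, against 69 and 67 in non-cycling cells. At least 1 Top2a UMI was in 87.4% of knockout and 83.1% of wild type cycling cells. The other markers named for these cells, Mki67, Cdk1 and Cenpf, had 1570, 904 and 886 UMIs in the knockout and 922, 531 and 406 in the wild type cycling cells. These UMIs were fixed by the rule and do not check the label, and mitosis genes outside the rule are given further on. The median cycling cell held 27 cycle UMIs in knockout and 12 in wild type cells. Members just inside the threshold, at 3 cycle UMIs and deep enough to be thinned to 2000 UMIs, numbered 24 and 38. Thinned to 2000 UMIs, they had a mean of 5.25 and 3.29 UMIs of mitosis genes outside the 8, and the 48 and 102 cells just outside, at 2 cycle UMIs, had 4.06 and 2.17. The class thus had no sharp lower edge in either library.

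The choice also favoured deep cells. Cycling cells had medians of 17695.5 UMIs and 3960.5 genes in knockout and 15020 UMIs and 2826 genes in wild type cells, against 7738 and 8477 UMIs in non-cycling luminal cells. The sums of the rule's own luminal genes had medians of 118 and 48 UMIs and those of its basal genes 4 and 2, which the rule had set in that order. Of 25 barcodes that occurred in both libraries, 1 was a member, in the wild type. A doublet score above the wild type library's threshold was found in 1 knockout member and in none of the wild type members. Ehf itself, on chromosome 2 from 103263431 to 103303275 of GRCm38, had 602 UMIs in knockout and 997 in wild type cycling cells, or 54.2 and 142 scaled CPM. The log2 difference was -1.39 (-1.53 to -1.24), and -0.72 on plain CPM. Ehf transcripts were thus lower but present in cells labelled knockout, and because the counted 3′ ends may lie outside the deleted part, this does not check the label. At least 1 Ehf UMI was seen in 63.5% and 75.1% of cycling cells, and in 1.54% and 3.45% of non-cycling basal cells, which are shallower at medians of 3645 and 2046 UMIs.

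Cycling cells made up a larger share of luminal cells in the knockout library. As counted, 334 of 764 knockout luminal cells were cycling, or 43.7% (40.2 to 47.3). In the wild type library it was 421 of 2397, or 17.6% (16.1 to 19.1). Depth and milk transcripts both bear on these shares, since a cell whose UMIs go to milk has fewer left for cycle genes. Each cell was therefore thinned to 1500 UMIs outside the 12 milk protein genes, which left out 12 and 73 shallower cells. The knockout share was then 143 of 752, or 19.0% (16.3 to 22), and the wild type share 153 of 2324, or 6.58% (5.61 to 7.67). With depth fixed outside milk, the cycling share of knockout luminal cells was thus still above that of the wild type. No excess in the knockout beyond counting error was seen in neighbouring classes. At the same fixed depth the cycling share of basal cells was 2.52% (2.12 to 2.96) in knockout and 3.55% (3.08 to 4.08) in wild type cells. These intervals do not overlap, and the wild type share was the higher. At 2000 UMIs of all genes the basal shares were 2.82% (2.39 to 3.29) and 5.51% (4.78 to 6.31). That depth left out 194 knockout and 2952 wild type basal cells. Hormone-sensing cells are given as counted only. Of these, 20 of 164 (12.2%, 7.61 to 18.2) and 13 of 122 (10.7%, 5.80 to 17.5) carried 3 or more cycle UMIs, and the intervals overlap.

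Luminal cells were next divided by the share of their UMIs in the 12 milk protein genes, at 1500 UMIs outside these genes. Below a milk share of 5%, the cycling cells were 67 of 349 (19.2%, 15.2 to 23.7) from the knockout library and 5 of 77 (6.49%, 2.14 to 14.5) from the wild type library. Between 5 and 15%, in the same order, the counts were 59 of 269 (21.9%, 17.1 to 27.4) and 10 of 131 (7.63%, 3.72 to 13.6). These intervals did not overlap, so at this depth the libraries differed beyond counting error among cells with little milk transcript. At 2000 UMIs of all genes the shares below 5% were 22.2% (17.9 to 27.0) and 10.9% (4.51 to 21.2), whose intervals overlap, and between 5 and 15% they were 24.8% (19.7 to 30.5) and 11.9% (6.82 to 18.9), whose intervals do not. Between 15 and 35% they did overlap, with 16 of 113 (14.2%, 8.32 to 22) and 68 of 742 (9.16%, 7.19 to 11.5). Above 35% the shares were 1 of 21 (4.76%, 0.12 to 23.8) and 70 of 1374 (5.09%, 3.99 to 6.39), and no difference was detectable at this depth. Weighting the wild type bins by the makeup of the knockout library gave 7.26%, against 6.58% unweighted and 19.0% in the knockout. At 2000 UMIs of all genes the weighted wild type share was 10.8%, against 6.43% unweighted and 21.6% in the knockout. This weighting rests on few wild type cells in the low bins.

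**Figure D1:**
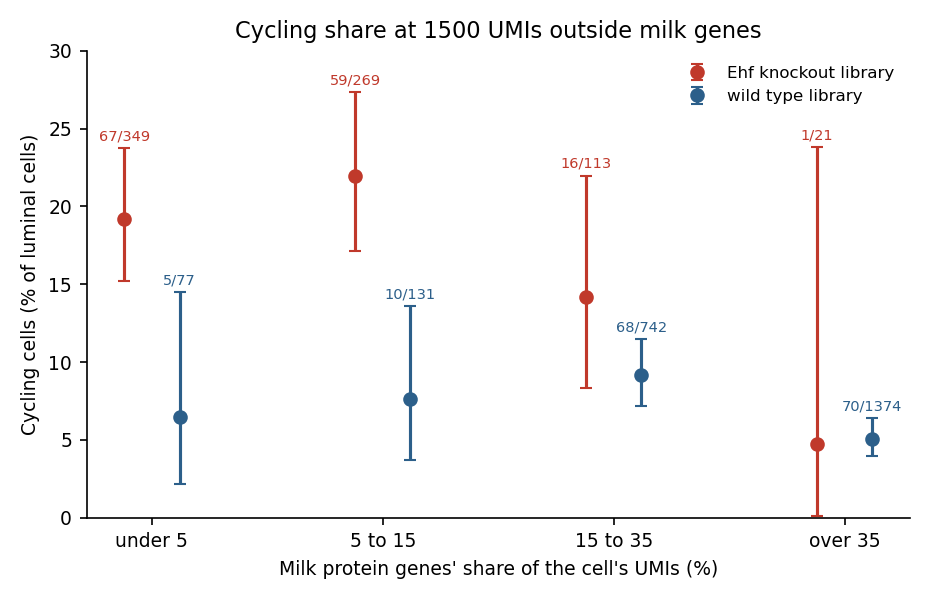
Percent of luminal cells with 3 or more cycle UMIs after thinning to 1500 UMIs outside milk genes, by the milk protein share of the cell, for the knockout (red) and wild type (blue) library. Points are shares, bars are exact Clopper-Pearson 95% intervals, and labels give cycling over all cells: below a milk share of 15% the red points lie at 19.2% and 21.9% and the blue points at 6.49% and 7.63%, and above 35% both lie near 5%.

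Most wild type cycling cells were also making milk transcripts. In a wild type cycling cell, the 12 milk protein genes had a median of 35.4% of all UMIs (quartiles 27.7 and 43.1) and in a non-cycling one 38.4% (28.1 and 45.9). In the knockout library the medians were 6.11% (3.27 and 11.8) and 4.88% (2.29 and 12.5). Within a library, cycling and non-cycling cells therefore overlapped widely in milk share, while between libraries the quartile ranges of the cycling cells did not overlap. Of wild type cycling cells, 218 of 421 (51.8%) were above a milk share of 35%, and of knockout cycling cells 2 of 334. Only 9 wild type but 138 knockout cycling cells were below 5%. Among members with at least 12 cycle UMIs, which were 228 knockout and 220 wild type cells, the medians were 5.81% and 35%, so the milk transcripts were not limited to members near the threshold. Cycling basal cells of the same libraries had a median milk share of 0.149% in knockout and 0.906% in wild type cells. Their 95th percentiles were 0.934% and 36.3%. The part of free milk RNA in the shares of luminal cells was not tested.

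**Figure D2:**
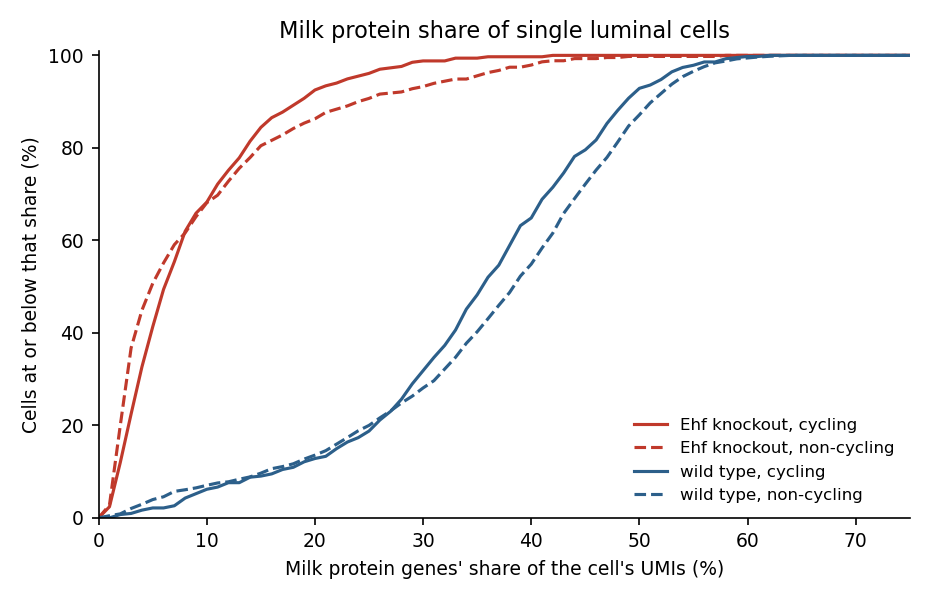
Cumulative percent of luminal cells (vertical axis) at or below a given milk protein share of the cell's UMIs (horizontal axis), for cycling (solid) and non-cycling (dashed) cells of the knockout (red) and wild type (blue) library. Solid and dashed lines of a library run close together, with medians of 6.11% and 4.88% in knockout and 35.4% and 38.4% in wild type cells.

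UMIs were then summed per library over cycling and over non-cycling cells, and each sum was scaled by its median ratio over genes to CPM (scaled CPM). Values called log2 are differences of such levels on the log2 scale, and a gene was counted as higher or lower past 1.5-fold, a rule of size and not a test. A gene entered a comparison with at least 50 UMIs over the 2 sums compared. In the knockout library, 7.62% of 9484 genes were higher in cycling than in non-cycling cells and 6.62% were lower. In the wild type library the shares were 6.9% and 5.47% of 9802 genes. In both libraries at once 4.31% of 9185 genes were higher and 1.55% were lower. The balance depends on the scaling: of the genes past 1.5-fold, 53.5% (knockout) and 55.8% (wild type) were on the higher side, against 76.1% and 92.0% on plain CPM and 71.1% and 88.0% with CPM outside milk genes. Plain CPM moved the median gene by 0.17 and 0.30 on the log2 scale, and CPM outside milk genes by 0.12 and 0.24.

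Most genes of the mitosis and DNA replication lists were on the higher side. Because the cells were selected on cycle transcripts, this describes the class and is not a finding, and nothing is read from the shares above. Of 59 mitosis genes outside the 8, 57 were measured in the knockout and 56 were higher past 1.5-fold in cycling cells, with a median log2 of 3.43. Of 56 measured in the wild type 53 were higher, with a median of 3.87. A member measured only through the cycling sum had to differ, so these counts cover the genes that passed the filter and no more. Among mitotic kinases and cyclins, Ccna2, the cyclin that carries cells from S phase into mitosis, was at 54.1 scaled CPM in cycling and 1.04 in non-cycling knockout cells, and at 52.8 and 2.06 in the wild type. Ccnb2, a B-type cyclin, was at 46.4 against 6.68 in knockout and 45.2 against 4.26 in wild type cells. Cdc20, which switches on the anaphase-promoting complex, was at 56.7 against 6.06 and 66.1 against 4.19. For these genes cycling cells of either library stood far above non-cycling cells, and the cycling levels of the libraries were close to each other.

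Kinetochore genes showed the same pattern. Cenpa, the histone that marks centromeres, was at 78.7 scaled CPM in cycling and 6.06 in non-cycling knockout cells, log2 3.70 (3.17 to 4.29), and at 73.8 and 4.33 in the wild type, log2 4.09 (3.70 to 4.50). Hmmr, a spindle-binding protein, differed by 5.38 and 5.11, and Prc1, which bundles the midzone in cytokinesis, by 3.51 and 4.15. Some members differed much less. Cks1b, a small CDK-binding protein, differed by 0.47 in knockout and 0.31 in wild type cells. Tubb4b, a beta-tubulin, differed by 0.66 in knockout and 0.45 in wild type cells, and Tubb5, the most abundant spindle list gene in cycling cells, by 1.69 and 1.82. Chromosome structure genes lay between, with all 11 measured genes higher and medians of 2.04 and 2.40. Of these Smc2, a condensin subunit, differed by 2.04 and 3.16, and Hmgb1, a chromatin protein of most cells, by 0.83 and 1.03.

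Replication genes differed less from the non-cycling class, and the gap between classes was smaller in the knockout. Of 41 replication genes 40 were measured in the knockout, of which 35 were higher in cycling cells with a median log2 of 1.09. Of 36 measured in the wild type 33 were higher with a median of 1.72. Mcm3, a subunit of the replicative helicase, was at 30.9 scaled CPM in cycling and 13.8 in non-cycling knockout cells, and at 12.4 and 2.86 in the wild type. Mcm7, on chromosome 5 from 138164583 to 138172111, was at 186 and 82.3 in knockout and 63.7 and 18.6 in wild type cells. Non-cycling knockout cells thus held more Mcm7 than wild type cycling cells did, and about as much Mcm3. Tk1, thymidine kinase of S phase, differed by 2.62 in the knockout (1.78 to 3.60) and 3.62 in the wild type (2.73 to 4.63), and Rrm2, a ribonucleotide reductase subunit, by 2.68 and 3.50. Pcna, the sliding clamp, differed by 0.61 and 0.57, near the 1.5-fold line.

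**Figure D3:**
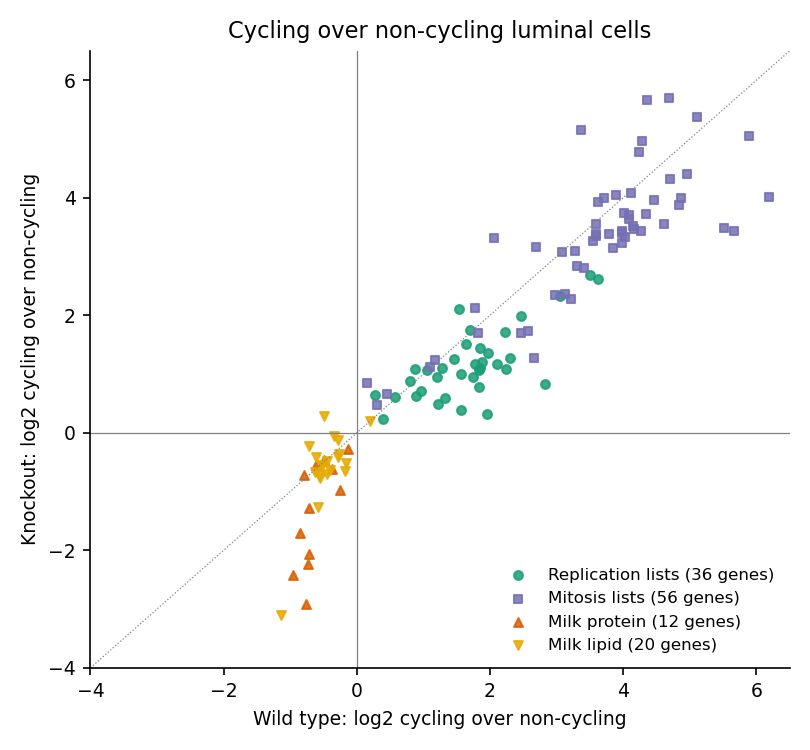
Each point is a gene measured in both libraries, placed by its log2 difference of cycling over non-cycling cells in the wild type (horizontal) and the knockout (vertical), with the line of equal values dotted. Mitosis genes (56) lie at the upper right along the line, replication genes (36) mostly below it, and the 12 milk protein and 20 milk lipid genes near or below 0, with the lowest knockout values in Cidea at -3.11 and Lalba at -2.92.

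The promoters of both gene groups are shown because their members differed together in both libraries. Windows from 250 bases before to 50 after the RefSeq gene start (GRCm38.p6) were searched on both strands for 3 motifs: the CHR element TTTGAA, the CCAAT box, and the E2F-like TTTNNCGC. CHR elements are known from late cell cycle promoters bound by the DREAM and B-Myb complexes, and E2F sites from promoters switched on before S phase. Of 59 mitosis genes 50 matched the table, with 55 windows, and 65.5% of these held TTTGAA, against 17.9% of all 32851 windows and 9.76% of the 41 windows of 36 replication genes. TTTNNCGC was in 43.9% of replication windows, 10.9% of mitosis windows and 5.17% of all windows. CCAAT was in 74.5%, 58.5% and 37.4% of mitosis, replication and all windows. Cdc20 (chr4:118437294-118437593) and Ccnb2 (chr9:70421505-70421804) are shown for the mitosis lists, and Mcm7 (chr5:138171834-138172133, the first of its 2 windows) and Mcm3 (chr1:20820263-20820562) for the replication lists. Cdc20, Ccnb2 and Mcm3 were chosen after their motifs were seen. The windows of the most abundant mitosis genes, Tubb5 and Tuba1b, held no TTTGAA, and the first window of Lig1, a DNA ligase abundant among replication genes, held none of the 3 motifs. All 4 printed are on the minus strand and are written in the direction of transcription, with motif matches in capitals, some of them as the reverse complement:
Cdc20: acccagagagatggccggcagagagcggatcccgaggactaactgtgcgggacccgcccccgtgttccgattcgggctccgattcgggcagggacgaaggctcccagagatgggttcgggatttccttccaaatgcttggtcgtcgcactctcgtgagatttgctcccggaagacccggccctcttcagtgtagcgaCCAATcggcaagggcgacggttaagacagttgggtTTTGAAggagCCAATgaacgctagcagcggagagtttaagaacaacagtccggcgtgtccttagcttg
Ccnb2: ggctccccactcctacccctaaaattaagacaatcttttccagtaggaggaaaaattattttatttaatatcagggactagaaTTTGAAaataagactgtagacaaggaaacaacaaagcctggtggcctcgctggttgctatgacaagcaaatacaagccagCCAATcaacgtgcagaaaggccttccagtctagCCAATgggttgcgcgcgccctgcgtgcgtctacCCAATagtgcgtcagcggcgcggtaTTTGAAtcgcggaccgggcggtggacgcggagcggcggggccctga
Mcm7: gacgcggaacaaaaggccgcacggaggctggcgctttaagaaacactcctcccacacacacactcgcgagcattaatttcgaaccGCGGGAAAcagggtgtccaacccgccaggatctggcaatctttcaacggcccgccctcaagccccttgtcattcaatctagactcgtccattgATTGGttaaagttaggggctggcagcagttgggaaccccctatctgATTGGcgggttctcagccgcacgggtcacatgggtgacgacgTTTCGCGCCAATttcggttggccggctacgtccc
Mcm3: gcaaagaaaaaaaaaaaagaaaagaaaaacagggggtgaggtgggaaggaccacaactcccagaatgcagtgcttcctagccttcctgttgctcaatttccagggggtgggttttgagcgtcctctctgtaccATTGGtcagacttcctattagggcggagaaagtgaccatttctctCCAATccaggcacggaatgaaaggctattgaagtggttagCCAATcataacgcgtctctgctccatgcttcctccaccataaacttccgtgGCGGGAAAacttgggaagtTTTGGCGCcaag
The Cdc20 window held 1 TTTGAA and 2 CCAAT, and the Ccnb2 window 2 TTTGAA and 3 CCAAT. The Mcm7 and Mcm3 windows each held 2 matches to TTTNNCGC and 3 to CCAAT. A match is a string of letters and not a measured binding site.

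The balance of mitosis and replication transcripts within the class was read after thinning each cell to 2000 UMIs. Knockout cycling cells had a mean of 10.8 mitosis and 4.26 replication UMIs, and wild type cycling cells 6.41 and 1.88. The ratio of mitosis to replication UMIs was 2.53 in knockout and 3.41 in wild type cells, and 1.33 and 1.97 when the tubulins and Stmn1 were left out of the mitosis lists. Replication transcripts thus took a larger part in the knockout by either count. More mitosis than replication UMIs were found in 269 of 332 knockout (81.0%, 76.4 to 85.1) and 354 of 421 wild type cells (84.1%, 80.2 to 87.4), shares whose intervals overlap. At 1500 UMIs outside milk genes these shares were 77.1% (72.2 to 81.5) in knockout and 87.4% (83.9 to 90.4) in wild type cells. Those intervals do not overlap, so the reading of this measure depends on the depth used. Since all 8 genes of the rule peak late in the cycle, cells in early S phase can be missed by it. Among non-cycling cells, 11.2% (knockout) and 1.27% (wild type) had 5 or more replication UMIs at this depth. In cycling cells the same count was reached by 37.0% and 11.6%. With 1500 UMIs outside milk the shares among cycling cells were 35.2% and 12.1%, a difference of about the same size. At that depth the mean mitosis UMIs of cycling cells were 8.97 in knockout and 7.04 in wild type cells, closer together than at 2000 UMIs. Mean replication UMIs were 3.94 and 2.06.

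Regulators of the cycle divided into late and early members. Mybl2 and Foxm1, transcription factors of the late cycle, differed between cycling and non-cycling cells by 2.50 and 2.72 in knockout and 3.54 and 3.71 in wild type cells. The list of E2F, B-Myb and FoxM1 regulators had 6 of 8 measured genes higher in knockout and 5 of 6 in wild type cells. Of 13 measured G1 cyclins and CDK inhibitors, 5 and 6 were higher. Ccnd1, cyclin D1, which couples mitogens to the start of the cycle, did not separate cycling from non-cycling cells: it was at 531 and 500.2 scaled CPM in knockout and 131 and 125 in wild type cells. Cdk2, the kinase of S phase entry, differed by 1.05 and 0.87. Cdkn2d, an inhibitor of CDK4 and CDK6, was higher in cycling cells by 1.73 and 2.37, while Cdkn1a, the p53 target p21, was at 0.04 and -0.25, the latter turning to 0.05 on plain CPM. No gene of the p53 target list, with 10 measured in knockout and 9 in wild type cells, passed 1.5-fold in either direction. Over all genes 7.62% were higher and 6.62% lower in the knockout, and 6.9% and 5.47% in the wild type. These shares leave few passing genes in so short a list, so the count does not set it apart.

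Homologous recombination repairs breaks against the sister copy. All 11 of its genes measured in knockout and all 7 in wild type cells were higher in cycling cells, with medians of 1.98 and 2.28. Only 1 of the 13 genes listed, Tipin, reached 50 UMIs over the non-cycling sums of both libraries. Most members thus passed the filter through the cycling sum, in cells chosen on cycle transcripts. These counts were largely set by that choice, and nothing is read from them. Brca1, which prepares broken ends, differed by 1.98 and 2.28 on 110 and 45 UMIs in cycling cells. Growth genes were given by the ribosome biogenesis list. No gene of the 13 measured passed 1.5-fold in either library, with medians of 0.13 and -0.06. Over all genes 7.62% were higher and 6.62% lower in the knockout, and 6.9% and 5.47% in the wild type. The count thus does not set these genes apart from others. Myc differed by 0.13 and by -0.06, which turns to 0.24 on plain CPM.

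Outside the lists, the highest differences shared by the libraries were in histone and chromatin genes. The H2A genes H2ac24, H2ac6 and H2ac22 were higher by 4.95, 4.50 and 4.87 in the knockout and 4.99, 4.68 and 3.58 in the wild type. They are near-identical copies, so which of them the reads came from is uncertain. Pclaf, a PCNA partner, followed with 3.45 and 3.85, then the noncoding Lockd with 2.33 and 2.67 and the nuclear import factor Kpna2 with 1.79 and 1.62. H2az2, Tmpo, Rad21, Dek, Ccdc34 and Arl6ip1 completed the 12 highest, at 1.11 or more in both libraries. Among the 12 lowest were Pigr, Pisd-ps1, Nupr1, Lars2, Cck, Gadd45b, Malat1, Wfdc3, Saa1, Lao1 and Ctsd. Pigr, which carries antibodies into milk, was at 27.3 scaled CPM in cycling and 62.4 in non-cycling knockout cells and at 149 and 272 in the wild type. Gadd45b, a stress-induced growth arrest gene, differed by -1.29 and -0.75, and Ctsd, a lysosomal protease, by -0.66 and -0.68. Saa1 at -4.02 in the knockout rests on 1 non-cycling cell, which held 251 of the 329 UMIs there.

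In the summed UMIs, milk protein genes were lower in cycling than in non-cycling cells of the same library. For several of them the gap was wider in the knockout. The median knockout cell went the other way, with a milk share of 6.11% in cycling and 4.88% in non-cycling cells. Above a share of 35% were 2 of 334 cycling and 19 of 430 non-cycling knockout cells, and the part of such cells in the sums was not tested. None of the 12 was higher past 1.5-fold, and 9 were lower in knockout and 8 in wild type cells, with medians of -1.13 and -0.72. Of all genes 6.62% and 5.47% were lower. On plain CPM the medians were -0.96 and -0.42. Wap, the whey acidic protein, on chromosome 11 from 6635483 to 6638654, was at 667 scaled CPM in cycling and 3587 in non-cycling knockout cells, log2 -2.43 (-2.47 to -2.39). Wild type levels were 21922 and 42377, log2 -0.95 (-0.96 to -0.94). Lalba, alpha-lactalbumin, the lactose synthase subunit of milk, on chromosome 15 from 98480400 to 98482934, was at 41.1 and 311 in the knockout, log2 -2.92 (-3.08 to -2.77), and at 2458 and 4180.1 in the wild type, log2 -0.77 (-0.79 to -0.74). Spp1 and Glycam1, both secreted into milk, differed by -2.24 and -2.06 in knockout and -0.73 and -0.71 in wild type cells. Of the Glycam1 UMIs of knockout cycling cells, 41.0% were in 2 cells. The classes were closer for some caseins. Csn2, beta-casein, differed by -0.28 in knockout and by -0.14 in wild type cells, which turns to 0.16 on plain CPM, and Csn3, kappa-casein, by -0.47 and -0.49.

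**Figure D4:**
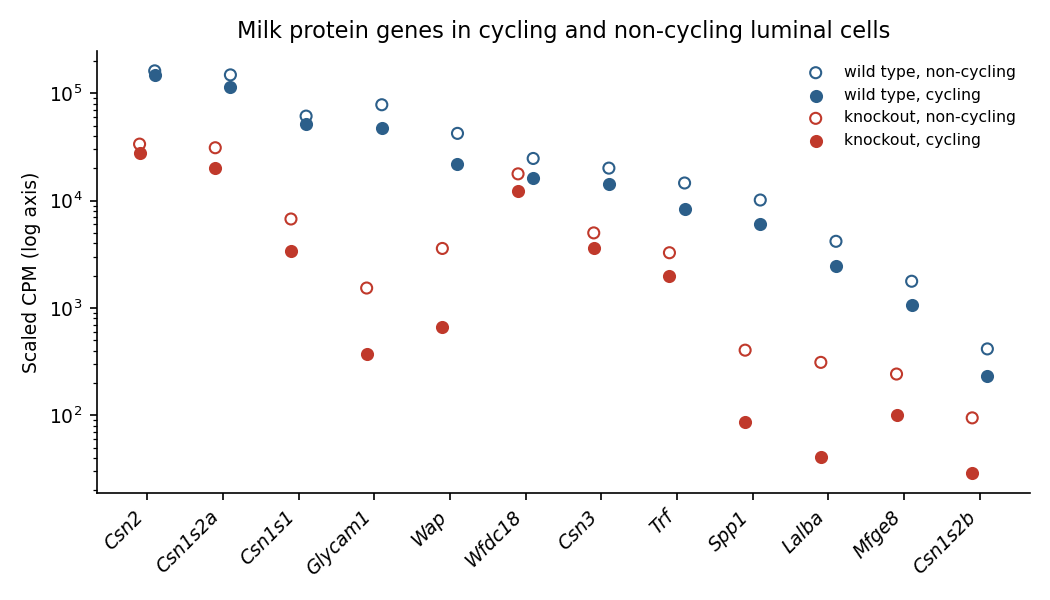
Scaled CPM of the 12 milk protein genes on a log axis, for cycling (filled) and non-cycling (open) luminal cells of the knockout (red) and wild type (blue) library. Filled points lie below open points of the same colour for every gene, and the widest gaps are those of Lalba, Wap, Spp1 and Glycam1 in the knockout.

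The same held in part for milk fat genes. Of 20 measured milk lipid genes, 8 were lower in knockout and 4 in wild type cycling cells, and none was higher, with medians of -0.53 and -0.47. For this list and those below, the shares over all genes were 6.62% lower and 7.62% higher in the knockout. In the wild type they were 5.47% lower and 6.9% higher. Cidea, a lipid droplet protein, had 14 UMIs in cycling and 52 in non-cycling knockout cells and 1909 and 8141 in the wild type, log2 -3.11 (-4.07 to -2.23) and -1.14 (-1.21 to -1.07). Fasn, fatty acid synthase, differed by -0.42 and -0.61, and Plin2, the coat of lipid droplets, by -0.49 and -0.45. The prolactin, Stat5 and Elf5 list had medians of -0.07 and -0.02, and 1 of 16 genes, Socs3, was lower past 1.5-fold in the knockout. That is near the 6.62% lower over all genes there. Of 10 measured luminal progenitor genes, 1 was higher and 4 were lower in knockout cycling cells, with a median of -0.35. In the wild type 2 of 9 were lower and none was higher, with a median of -0.19. Among them Kit, the stem cell factor receptor, was at 63.8 scaled CPM in cycling and 137 in non-cycling knockout cells. Wild type levels of Kit were 33.7 and 46.9. Kit was thus lower past 1.5-fold in knockout cycling cells, and in the wild type the difference of -0.48 (-0.70 to -0.26) did not pass it. Immediate early genes, which also mark dissociation, were lower in 5 of 15 in knockout and 1 of 15 in wild type cells, with Fos at -0.62 and 0.13. The wild type count is near the 5.47% lower over all genes there. The part of immediate early genes in the differences above was not tested.

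Knockout and wild type were then compared within cycling cells, with the non-cycling value beside each. Of 9706 genes 12.9% were higher and 14.5% lower in knockout cycling cells, and of 9601 genes 15.4% and 18.9% in non-cycling cells. These comparisons share their libraries, so the second is no separate evidence. The split depends strongly on the scaling, since milk genes take 37.1% of the wild type and 9.63% of the knockout cycling sum. Of the genes past 1.5-fold 47.1% were higher, against 93.4% on plain CPM, which moved the median gene by 0.67 on the log2 scale, and 65.1% on CPM outside milk genes. Directions below are those relative to the median gene, and a gene whose direction turns on another scaling is named as such.

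Relative to the median gene, mitosis genes of cycling cells were at nearly the same level in both libraries. The same minimum of 8 late cycle genes chose the cells of both, and its part in this closeness was not tested. Kinetochore, spindle and cytokinesis lists had medians of 0.27, 0.20 and 0.18, which were 0.93, 0.86 and 0.85 on plain CPM. Of 58 measured mitosis genes 5 were higher and 1 was lower in the knockout, with a median of 0.15. Both shares lie below the background of 12.9% and 14.5%. None of the 17 mitotic kinases and cyclins passed 1.5-fold, with a median of 0.09, although that median is 0.76 on plain CPM. Ccnb2 was at 46.4 scaled CPM in knockout and 45.2 in wild type cycling cells, log2 0.04 (-0.17 to 0.24). The exceptions among mitosis genes were Hjurp, the loader of centromeric histone, at 1.32, Cenpk at 0.86, Stmn1 at 0.94, Anln at 0.86, Kif15 at 0.69 and, on the lower side, Spc25 at -1.10.

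Replication genes were higher in knockout cycling cells. Of 40 measured genes 26 were higher and 1, Fen1, was lower, against the background of 12.9% and 14.5%. Among licensing and helicase genes 12 of 14 were higher, with a median of 1.00, and in non-cycling cells 10 of 10, with a median of 1.49. Mcm7 had 2064 UMIs in knockout and 448 in wild type cycling cells, log2 1.55 (1.40 to 1.70), and 2.15 in non-cycling cells. Mcm2, another helicase subunit, was at 1.17 (0.82 to 1.53) and Pola1, the catalytic subunit of the polymerase that starts DNA strands, at 1.39 (1.09 to 1.69). Mcm4 and Mcm10 did not pass 1.5-fold, at 0.20 and 0.30. Nucleotide enzymes were divided. Dut, which clears dUTP, was higher at 0.86. Tyms, thymidylate synthase, was at 0.06 (-0.20 to 0.31) and Rrm2 at -0.36, which turns to 0.31 on plain CPM. With wild type cells weighted to the milk makeup of the knockout, as described further on, the licensing median was 0.25 and that of mitotic kinases and cyclins 0.32, so the contrast between replication and mitosis genes was not seen there.

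**Figure D5:**
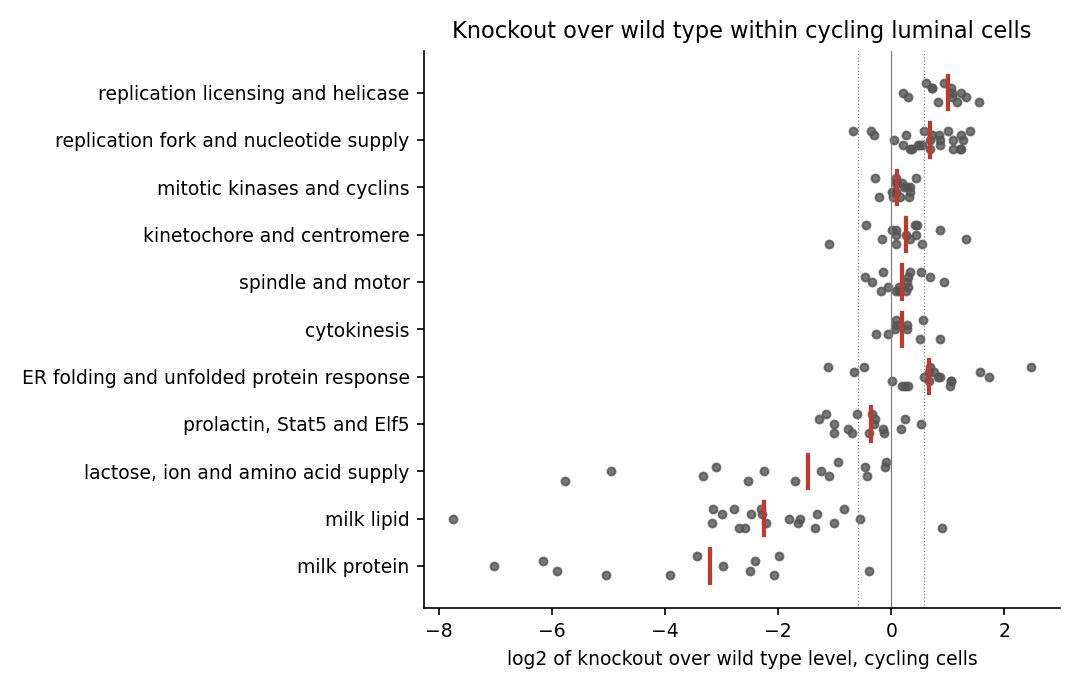
Log2 of knockout over wild type scaled CPM in cycling luminal cells (horizontal) for the measured genes of 11 lists. Each grey point is a gene, red bars are list medians, dotted lines mark 1.5-fold, and medians run from 1.00 for replication licensing and 0.67 for ER folding through values near 0 for the mitosis lists to -2.25 for milk lipid and -3.21 for milk protein.

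Among G1 regulators Ccnd1 stood out. Ccnd1, on chromosome 7 from 144929931 to 144939831, had 5897 UMIs in knockout and 922 in wild type cycling cells, with at least 1 UMI in 95.2% and 63.9% of cells. The log2 difference was 2.02 (1.92 to 2.12) in cycling and 2.01 in non-cycling cells, so it was as large in either class. Its kinase partner Cdk4 was at 1.10 (0.92 to 1.29), and Cdc25a, a phosphatase that activates CDK2, at -0.71, or -0.04 on plain CPM. The other 10 of 13 measured genes did not pass 1.5-fold. With 12.9% of all genes higher and 14.5% lower, the count does not set this list apart.

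Secretory genes were lower in knockout cycling cells. Of 12 milk protein genes 11 were lower in cycling cells, against 14.5% of all genes there. Their median was -3.21 in cycling and -2.57 in non-cycling cells. Glycam1 was at 369 scaled CPM in knockout and 47756 in wild type cycling cells, log2 -7.02 (-7.06 to -6.97). Its 4097 knockout UMIs were in 94 of 334 cycling cells, and the top 2 cells held 1136 and 543 of them. The interval does not cover this clustering. Lalba was at -5.90 in cycling and -3.75 in non-cycling cells, a difference between the classes of -2.16 (-2.31 to -2.00), and Wap at -5.04 and -3.56, a difference of -1.48 (-1.52 to -1.44). In the sums the libraries were thus further apart for Lalba and Wap in cycling than in non-cycling cells. The intervals take each UMI as independent and do not cover clustering in a few cells. Above a milk share of 35% were 2 of 334 cycling and 19 of 430 non-cycling knockout cells, and their part in this gap was not tested. For Csn3 the difference was 0.02 (-0.01 to 0.04) and for Trf, transferrin, 0.08 (0.05 to 0.11). At least 1 Lalba UMI was in 81 of 334 knockout cycling cells and in 387 of 421 wild type ones, and for Wap in 169 and 420. Wfdc18 was the milk gene that did not pass 1.5-fold, at -0.40, and it turned to 0.27 on plain CPM.

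Of 20 milk lipid genes 18 were lower and 1 was higher, with a median of -2.25. The shares over all genes, for this list and those below, were 14.5% lower and 12.9% higher. Cidea had 14 UMIs in 11 knockout cycling cells and 1909 in 259 wild type ones, log2 -7.75 (-8.62 to -7.00). Btn1a1, which coats the milk fat globule, was at -2.99 and Fasn at -1.81. Of 14 genes of lactose, ion and amino acid supply, 10 were lower and none was higher, with Slc34a2, a phosphate carrier, at -4.96 and B4galt1, the other lactose synthase subunit, at -2.53. Upstream of these, 7 of 16 prolactin, Stat5 and Elf5 genes were lower and none was higher, with a median of -0.37 that turns to 0.30 on plain CPM. Prlr, the prolactin receptor, was at -1.01 (-1.18 to -0.84), Socs3, a feedback inhibitor of STAT signalling, at -1.27, and Elf5, the ETS factor of alveolar fate, at -0.60, which is 0.07 on plain CPM. Stat5a did not pass 1.5-fold, at -0.31 or 0.36 on plain CPM.

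Protein folding genes of the endoplasmic reticulum were higher in knockout cycling cells. Of 20 genes 13 were higher and 2 lower, with a median of 0.67, against 8 and 2 of 20 and a median of 0.44 in non-cycling cells. Over all genes 12.9% were higher and 14.5% lower in cycling cells, and 15.4% and 18.9% in non-cycling cells. The 2 lower genes are not above these shares. Hspa5, the main chaperone of the reticulum, was at 1560.4 scaled CPM in knockout and 759 in wild type cycling cells, log2 1.04 (1.00 to 1.08). Derl3, a factor of protein disposal, was at 89.8 and 16.2, log2 2.47, and Creld2 at 1.72. Xbp1, the transcription factor that drives many folding genes, was lower at -1.12 (-1.19 to -1.04). Of 13 ribosome biogenesis genes 4 were higher, led by Npm1, a nucleolar chaperone, at 0.95.

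By the rule for single genes, the highest in knockout cycling cells were Hp, Tnfaip2, Derl3, Lgals7, Ccnd1, Rspo1, Tagln2, Creld2, Anxa2, Sdf2l1, Mcm7 and S100a6. Hp, haptoglobin, which binds free haemoglobin, had 617 UMIs in 93 knockout cycling cells and 1 UMI in the wild type, log2 8.61 (6.13 to 13.92). It was seen in 27.8% of knockout cycling cells and in 10.2% of the shallower non-cycling ones, against 0.482% of knockout non-cycling basal cells. Tnfaip2 was at 2.77 (2.50 to 3.06) and Rspo1, an enhancer of Wnt signalling, at 1.78 (1.51 to 2.06). S100a6 was at 1.49 in cycling and 2.94 in non-cycling cells, and Anxa2 at 1.65 and 2.54, so both libraries were closer together among cycling cells. The lowest were Cidea, Glycam1, Fabp4, Spp1, Lalba, Wap, Saa2, Slc34a2, Sftpd, Lao1, Saa1 and Csn1s1. Fabp4, a fatty acid binding protein also of endothelial cells, rests on 2 wild type cells that held 512 and 498 of its 1040 UMIs.

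Because few wild type cycling cells were low in milk, the comparison was repeated with wild type cycling cells weighted to the milk bins of the knockout. The 9 wild type cells below a share of 5% then carry 41.3% of the weight and the 29 between 5 and 15% carry 43.1%, so these values rest mostly on 38 cells. The bins were made from the milk protein genes, whose values under it are partly set by the weighting. The median of replication licensing genes moved from 1.00 to 0.25 and that of the replication fork list from 0.68 to 0.26, while mitotic kinases and cyclins moved from 0.09 to 0.32 and kinetochore genes from 0.27 to 0.30. Spindle genes were then at 0.01 and cytokinesis genes at 0.05. The median of milk lipid genes moved from -2.25 to -0.29, and that of lactose, ion and amino acid supply from -1.48 to -0.26. The median of ER folding genes moved the other way, from 0.67 to 1.29. Some genes stayed far apart: Derl3 was at 3.80, Cidea at -3.87, Glycam1 at -3.78 and Lalba at -2.60. Hp was at 10.09, but this rests on the single wild type UMI given above and so depends on the weight of that cell. Ccnd1 stayed higher at 0.81 and Mcm7 was at 0.58. Others turned direction, with Anxa2 at -1.79, S100a6 at -1.81, Tagln2 at -1.06, Rspo1 at -0.26 and Kit, which had been at 0.92, at -1.41. As weighted, wild type cycling cells thus held more of these latter transcripts than knockout cycling cells did, and leaving out cells with markers of other types gave the same directions.

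Endothelial, mural, fibroblast and immune markers were near 0 in most members. Endothelial and mural markers were at 0 in 97.3% of knockout and 97.4% of wild type cycling cells, fibroblast markers in 84.4% and 92.4% and immune markers in 87.1% and 95%. Cells with 10 or more UMIs of these lists numbered 1 knockout and 2 wild type members, and 2 and 6 non-cycling cells. The 2 wild type members were the cells with high Fabp4, with 18 and 43 endothelial and mural UMIs. The 11 basal markers outside the rule summed to 344 CPM in knockout and 143 CPM in wild type cycling cells, with a highest single cell at 0.405% and 0.461% of its UMIs, and were at 0 in 9.58% and 26.4% of members. Hormone-sensing markers outside the rule summed to 106 and 144 CPM and were at 0 in 24% and 18.5% of members, with Tnfsf11 at 0 in the members of both libraries and Pnmt and Prom1 at 0 in the wild type. The part of basal transcripts in the differences between the libraries was not tested.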

How the data were processed

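Droplet single-cell RNA libraries (10x Genomics, 3′ version 3 chemistry) of mammary epithelium were deposited by the authors as UMI counts per gene and barcode, summing to 40066795 (knockout) and 48720938 (wild type) UMIs. Per the submitters' processing notes GRCm38 (mm10) and Seurat 4.0.4 were used. The sources used here name no aligner or counter. Barcodes with at least 1000 UMIs, at least 500 genes and at most 20% mitochondrial UMIs were kept, 15772 of 18533. Members, gene lists and tests were chosen with earlier results of these data known.

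For each library and class the UMIs were added up, and the sums were scaled by median-of-ratios factors to CPM. Plain CPM and CPM outside the 12 milk protein genes were alternatives. Shares have exact Clopper-Pearson 95% intervals and ratios exact conditional 95% intervals. Fixed depth means random thinning of each cell to 2000 UMIs, or to 1500 UMIs outside milk genes. Comparisons across all genes had no replicates and thus no test. The scripts were tested on simulated data.

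Genes were named by a rule: the rule genes, Ehf and milk proteins, up to 4 genes per list by size of difference, and the 12 highest and 12 lowest genes outside the lists (cycling over non-cycling) or over all genes (knockout over wild type) with at least 50 scaled CPM and 100 UMIs. A few genes that the rule or the lists hold are not reported here. Other list genes given with values were chosen after their values were seen. So were the promoters of Cdc20, Ccnb2 and Mcm3, since the rule took Tubb5, Tuba1b, Mcm7 and Lig1. Promoter windows are those of RefSeq for GRCm38.p6.

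Doublets were scored with Scrublet in scanpy 1.11.5, which called 125 of 9211 wild type cells at a threshold of 0.372 and none of 6561 knockout cells at 0.615. At its own threshold the caller failed on knockout cells, no cell was removed, and removal at 0.372 in both was an alternative. Other tools were Python 3.11.15, numpy 2.4.6, scipy 1.17.1, pandas 2.3.3 and matplotlib 3.10.9.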

Additional observations from a re-analysis of the deposited data

Results flagged for a closer look

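Fabp4, a fatty acid binding protein, and Ccnd2, cyclin D2, had opposite differences between cycling and non-cycling luminal cells in the 2 libraries, with 1 library each, so the difference between libraries was not tested. Fabp4 was at -3.14 on the log2 scale in knockout and 2.58 in wild type cells. In the wild type 2 cycling cells held 512 and 498 of its 1040 UMIs, and in the knockout 1 non-cycling cell with 338 fibroblast UMIs held 69 of 76. Without cells that had 10 or more UMIs of other types' markers the values were 0.28 and -1.12. Ccnd2 was at -0.91 in the knockout, on 64 and 52 UMIs in cycling and non-cycling cells, and at 0.69 in the wild type, on 30 and 36 UMIs.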

How the results depend on the processing

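With 1 library per genotype no replicate was left out, and no value here speaks to the spread between mice. No paired analysis was possible because each genotype has 1 library. Of 3132 gene values under alternatives 87 changed sign, of which 32 belong to differences past 1.5-fold and 55 to smaller ones. The alternatives that left out cells with other types' markers, weighted wild type cells in this way without them, left tubulins and Stmn1 out, or fixed depth outside milk for the mitosis and replication counts were added after seeing the data.

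The cycling share, 43.7% in knockout and 17.6% in wild type cells, was 21.6% and 6.43% at 2000 UMIs, 19.0% and 6.58% at 1500 UMIs outside milk, 50.1% and 21.8% from 2 cycle UMIs, 38.1% and 14.7% from 5, and 38.9% and 15.2% without the cell filter, and the wild type was at 15.8% when weighted to knockout milk bins. The knockout share was the higher under each of these. The ratio of mitosis to replication UMIs was 1.33 and 1.97 without tubulins and Stmn1.

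Genes higher in knockout cycling over non-cycling cells, 723, numbered 1110 on plain CPM, 268 at 2000 UMIs and 263 from 200 UMIs, and the 628 lower numbered 349, 247 and 221, with 403 on CPM outside milk and 1046 from 20 UMIs. In the wild type the 676 higher numbered 1680 on plain CPM, 1374 outside milk, 390 at 2000 UMIs, 1020 from 20 and 241 from 200 UMIs, and the 536 lower numbered 147 on plain CPM, 188 outside milk, 834 with equal weight per cell, 868 from 20 and 206 from 200 UMIs. For knockout over wild type in cycling cells the 1250 higher numbered 5656 on plain CPM, 1880 outside milk, 398 at 2000 UMIs and 622 from 200 UMIs, and the 1403 lower numbered 401, 483 at 2000 UMIs and 817 from 200 UMIs. A gene filter and thinning also change how many genes are measured.

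Among differences past 1.5-fold, directions changed as follows, and the cause was not tested. Ccnd2 in the knockout was at 0.25 for cells of 5 against 0 cycle UMIs and at 0.30 with a stricter luminal minimum, which put the wild type at -0.11. Fabp4 in the knockout was at 0.26 with that minimum and at 0.28 without cells of other types, where the wild type was at -1.12. Elf5 between libraries was at 0.070 on plain CPM. With wild type cycling cells weighted to knockout milk bins, and then also without cells of other types, values were 0.28 and 0.22 for Trf, 0.41 and 0.37 for Csn3, 0.19 and 0.13 for Fasn, 0.37 and 0.35 for Elf5, 0.11 and 0.19 for Prlr, 0.064 and 0.076 for Fen1, 0.49 and 0.51 for Xbp1, -0.26 and -0.40 for Rspo1, -1.06 and -1.13 for Tagln2, -1.79 and -1.95 for Anxa2, -1.81 and -2.00 for S100a6 and -1.41 and -1.56 for Kit. Fabp4 was at 1.68 under the second.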
